A study of Mus musculus with 2 samples.

Results

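Gamma-delta-like T cells were picked out of single-cell transcriptomes of mouse liver tumours by their transcripts. Every barcode kept by the quality limits was asked for at least 2 UMIs over the CD3 genes Cd3d, Cd3e and Cd3g, at least 1 UMI of Trdc, the constant gene of the T-cell receptor delta chain, and no UMI of Cd4, Cd8a, Cd8b1, Foxp3 or Cd79a. At most 1 UMI of the cycling genes Mki67 and Top2a and at most 4 UMIs of the macrophage genes C1qa, C1qb and C1qc were allowed. A UMI is a molecular tag that marks 1 captured transcript. The rule left 281 of 18786 kept barcodes, out of 18949 deposited. Of these, 152 came from the Crtc2-/- library and 129 from the Crtc2+/+ library.

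The Crtc2-/- library was made from liver tumours of mice that lack Crtc2, a coactivator of the cAMP-responsive transcription factor CREB, as labelled. The Crtc2+/+ library was made from tumours of mice with both alleles. Mice of both genotypes had received the liver carcinogen DEN, at 25 mg/kg into the peritoneum, at the age of 2 weeks. Both were then kept on a diet that induces non-alcoholic steatohepatitis between weeks 8 and 26. There was 1 library for each genotype, and the sources used here do not give the number of animals and tumours behind it. Genotype, animal, tumour and library therefore cannot be told apart in any value below. No test was made, and intervals are exact 95% intervals that cover counting error alone.

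Gamma-delta T cells carry a receptor of a gamma and a delta chain in place of the alpha and beta chains of CD4 and CD8 T cells. In mice they are found in barrier tissues and in the liver, and many leave the thymus already committed to a function. Cells committed to interleukin 17 respond to interleukins 1 and 23, while interferon-gamma-committed cells use T-bet and share receptors and granule proteins with natural killer cells.

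The cells were sequenced to a median of 4880.5 UMIs in the Crtc2-/- library and 5061 in the Crtc2+/+ library, and their summed totals were 806272 and 720455 UMIs. Levels are given as CPM, the counts scaled to a summed total of 1000000. The 2 libraries shared 29 barcodes, of which 1 was a gamma-delta-like cell in either library. Crtc2 itself was seen with 7 UMIs in Crtc2-/- cells, or 8.68 CPM, and with 5 UMIs in Crtc2+/+ cells, or 6.94 CPM. The labels do not say which part of the gene was removed, and a 3' tag outside that part cannot check the genotype.

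The gamma constant genes are alike in sequence, which limits how their separate counts can be read. The bases shown illustrate this likeness, and a 3' library need not have read them. The 4 gamma constant genes lie on chromosome 13, and the first 90 coding bases of each are shown from GENCODE M21 transcripts (GRCm38), with every base that differs from Tcrg-C1 in capitals.
Tcrg-C1, chr13:19214103-19214192, plus strand: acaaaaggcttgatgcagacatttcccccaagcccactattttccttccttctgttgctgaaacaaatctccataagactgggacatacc
Tcrg-C2, chr13:19307462-19307551, minus strand: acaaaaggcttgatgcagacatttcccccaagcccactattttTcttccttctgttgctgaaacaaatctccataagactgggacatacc
Tcrg-C3, chr13:19260885-19260974, plus strand: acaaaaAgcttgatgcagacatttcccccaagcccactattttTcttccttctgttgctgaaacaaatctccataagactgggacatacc
Tcrg-C4, chr13:19344558-19344647, plus strand: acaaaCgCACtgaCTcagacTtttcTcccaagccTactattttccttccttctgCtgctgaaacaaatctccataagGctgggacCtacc
Over these 90 bases Tcrg-C2 differed from Tcrg-C1 at 1 base, Tcrg-C3 at 2 and Tcrg-C4 at 12. Over the aligned parts of the whole transcripts Tcrg-C2 was 96.0% and Tcrg-C3 97.2% identical to Tcrg-C1, against 72.4% for Tcrg-C4. The sources used here do not say how reads were divided between the near-identical Tcrg-C1, Tcrg-C2 and Tcrg-C3, so their separate levels are uncertain. Tcrg-C4 differs more from them.

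The label was checked against the given markers Trdc, Tcrg-C1, Cd3e and Xcl1. Trdc and Cd3e were used by the rule and are a description: Trdc gave 1245 UMIs in Crtc2-/- cells and 1125 in Crtc2+/+ cells, with a median of 6 and 7 per cell, and Cd3e was seen in 90.1% and 92.2% of cells. Tcrg-C1, which the rule did not use, was seen in 73.0% of Crtc2-/- and 74.4% of Crtc2+/+ cells. It was seen in 4.52% of Crtc2-/- and 1.71% of Crtc2+/+ CD8 T cells, and in 0.0887% and 0.181% of B cells, which should lack it. A UMI of any of the 4 gamma constant genes was present in 94.1% of Crtc2-/- cells (143 of 152, interval 89.1% to 97.3%) and in 93.0% of Crtc2+/+ cells (120 of 129, 87.2% to 96.8%). The gamma-delta label thus held by the gamma chain as well as by the delta chain used to choose the cells.

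Transcripts of the alpha-beta chains were not absent. Trac, the alpha constant gene, was seen in 26.3% of Crtc2-/- and 28.7% of Crtc2+/+ cells, against 88.3% and 87.9% of CD8 T cells. Its level was 112 CPM in Crtc2-/- and 77.7 CPM in Crtc2+/+ cells, against 579 and 542 CPM in CD8 T cells. Trbc2, a beta constant gene, was seen in 93.4% of Crtc2-/- and 89.1% of Crtc2+/+ cells at 776 and 661 CPM. CD8 T cells of the same libraries had 1740 and 1129 CPM of Trbc2. Xcl1, a chemokine that attracts cross-presenting dendritic cells, was seen in 17.8% of Crtc2-/- and 31.8% of Crtc2+/+ cells, fewer than the 25.6% and 52.6% of CD8 T cells, and did not mark the cells as a whole. Trav11 and Trav11d, the alpha segments of invariant natural killer T cells, had no UMI in 152 Crtc2-/- and 129 Crtc2+/+ cells, but a 3' library reads variable segments rarely, so no limit on such cells follows. Ncr1, a receptor of natural killer cells, was seen in 3.95% of Crtc2-/- and 10.1% of Crtc2+/+ cells.

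**Figure D1:**
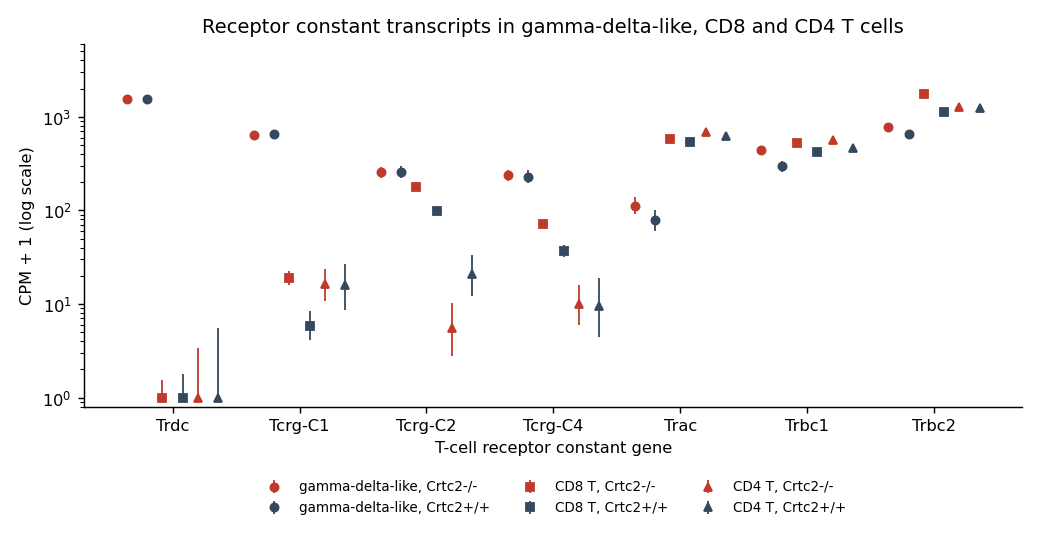
CPM of 7 receptor constant genes, plus 1 and on a log axis, in gamma-delta-like, CD8 and CD4 T cells of the Crtc2-/- library (red) and the Crtc2+/+ library (dark blue), with exact 95% counting intervals. Trdc is at 0 in the other classes by the rule. Tcrg-C1 stands at 639 CPM in Crtc2-/- and 648 CPM in Crtc2+/+ gamma-delta-like cells and below 20 CPM in the other classes, while Tcrg-C2 is also read in CD8 T cells.

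Cells just inside and just outside the Trdc limit differed. With exactly 1 Trdc UMI there were 13 Crtc2-/- and 14 Crtc2+/+ cells, of which 9 and 9 had a gamma constant UMI and 8 and 6 a Trac UMI. Just outside, 457 Crtc2-/- and 467 Crtc2+/+ T cells met the rest of the rule with no Trdc UMI, and 31.3% and 37.0% of these had a gamma constant UMI, while 77.5% and 80.5% had Trac.

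Gamma-delta-like cells were 1.66% of kept Crtc2-/- barcodes (152 of 9174, interval 1.41% to 1.94%) and 1.34% of kept Crtc2+/+ barcodes (129 of 9612, 1.12% to 1.59%). Of barcodes positive for CD3 they were 5.96% in Crtc2-/- (152 of 2550, 5.07% to 6.95%) and 6.93% in Crtc2+/+ (129 of 1861, 5.82% to 8.18%). The log2 ratio was 0.30 (-0.03 to 0.64) for the first denominator and -0.22 (-0.55 to 0.11) for the second, so the sign followed the denominator and both intervals held 0.

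Against CD8 T cells of the same library, gamma-delta-like cells carried the genes of interleukin 17-committed cells. In the 25-gene list of this programme, 22 of 23 measured genes were at least 2-fold higher than in CD8 T cells in both libraries, where 2.59% of all 10109 measured genes were. Against CD4 T cells 18 of 23 were higher by that limit in both libraries, where 2.15% of all 7766 genes were. The median log2 ratio of the list was 3.80 in Crtc2-/- and 3.49 in Crtc2+/+ over CD8 T cells, against medians of 0.03 and 0.05 over all measured genes. Folds and log2 ratios were taken after adding 10 CPM to both sides, which understates low genes. No p-value applies, since the cells were chosen by their transcripts in the same 2 libraries.

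Il17a, which encodes interleukin 17A, had 234 CPM in Crtc2-/- and 275 CPM in Crtc2+/+ gamma-delta-like cells. It had no UMI in CD8 T cells of either library, so its level was at least 544-fold higher in Crtc2-/- and at least 432-fold higher in Crtc2+/+ gamma-delta-like cells than the limit of 3 counts per library allows in CD8 T cells. CD4 T cells held 68.7 CPM in Crtc2-/- and 32.0 CPM in Crtc2+/+. It was read in few cells, 29 of 152 Crtc2-/- and 18 of 129 Crtc2+/+, and the 5 richest cells gave 52.4% and 77.3% of its UMIs.

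Receptors upstream of it were spread more widely. Il23r, the receptor for interleukin 23, had 470 CPM in Crtc2-/- and 434 CPM in Crtc2+/+ cells, against 1.15 and 1.49 CPM in CD8 T cells. Il1r1, the receptor for interleukin 1, had 377 CPM in Crtc2-/- and 366 CPM in Crtc2+/+ cells. Sox13, a transcription factor of gamma-delta thymocytes, had 96.7 CPM in Crtc2-/- and 88.8 CPM in Crtc2+/+ cells, against 0.287 and 0.424 CPM in CD8 T cells. The counting intervals of the ratio between the libraries held 1 for each of these 3 genes, while their levels stood far above those of CD8 T cells.

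Blk, a Src-family kinase known from B cells and from interleukin 17-committed gamma-delta cells, had 578 CPM in Crtc2-/- and 476 CPM in Crtc2+/+ cells, against 1.15 and 0.849 CPM in CD8 T cells. Cd163l1, a scavenger receptor of the CD163 family also called Scart1 and located at chr7:140218267-140231145, had 1172 CPM in Crtc2-/- and 987 CPM in Crtc2+/+ cells, against 3.59 and 15.1 CPM in CD8 T cells. The genes furthest above CD8 or CD4 T cells by the naming rule also held Adam12, a metalloprotease, Cdh10, a cadherin, Clnk, an adaptor of immune receptor signalling, Abi3bp, an extracellular matrix protein, Kcnk1, a potassium channel, Serpinb1a, a protease inhibitor, Tmem176a, a membrane protein, Zfp462, a zinc finger protein, and Zbtb16, the transcription factor PLZF of innate-like T cells. Zbtb16 had 372 CPM in Crtc2-/- and 190 CPM in Crtc2+/+ cells, against 5.46 and 3.61 CPM in CD8 T cells. These genes had been selected for their ratios, so their values describe the rule's outcome.

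The residency and cytokine receptor genes differed in part. Cxcr6, a chemokine receptor of liver-resident lymphocytes, was 2-fold higher or more than in CD8 and CD4 T cells of both libraries, at 984 CPM in Crtc2-/- and 780 CPM in Crtc2+/+ gamma-delta-like cells, against 396 and 305 CPM in CD8 T cells. Il7r, the receptor for interleukin 7, had 1625 CPM in Crtc2-/- and 1237 CPM in Crtc2+/+ cells, against 464 and 386 CPM in CD8 T cells. Il2ra, the high-affinity interleukin 2 receptor, had 179 CPM in Crtc2-/- and 132 CPM in Crtc2+/+ cells, against 4.59 and 5.94 CPM in CD8 T cells. Of the tissue residency list, 6 of 14 measured genes passed the fold over CD8 T cells in both libraries and none passed it downwards. Of the cytokine receptor list, 7 of 21 passed it upwards and 2 downwards. Of all measured genes 2.59% passed it upwards and 0.91% downwards.

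Over all gamma-delta-like cells together, genes of cytotoxic T cells were lower than in CD8 T cells. Those of repeatedly stimulated T cells were lower than in both classes. Of the cytotoxic list 6 of 14 measured genes, and of the list of inhibitory receptors and TOX 5 of 12, were lower than in CD8 T cells by 2-fold or more in both libraries, where 0.91% of all genes were. No cytotoxic gene and 1 inhibitory receptor gene was higher by that limit. Against CD4 T cells 2 of 14 cytotoxic genes were lower by it, with list medians of -0.43 in Crtc2-/- and 0.13 in Crtc2+/+, and 6 of 10 inhibitory receptor genes were lower by that limit, where 1.2% of all genes were. Gzmk, a granzyme, had no UMI in Crtc2-/- and 10 UMIs (13.9 CPM) in Crtc2+/+ gamma-delta-like cells, against 282 and 244 CPM in CD8 T cells. Ctla4, an inhibitory receptor, had 63.3 CPM in Crtc2-/- and 6.94 CPM in Crtc2+/+ cells, against 283 and 73.4 CPM in CD8 T cells. Cd6 and Cd5, both modulators of receptor signalling, and Themis, which sets receptor signalling in the thymus, were among the lowest against both classes. Themis had 104 CPM in both Crtc2-/- and Crtc2+/+ gamma-delta-like cells, against 1096 and 929 CPM in CD8 T cells.

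The cells fell into a type 17 and a type 1 part. Each cell was given the sum of its UMIs over 10 genes of the type 17 programme, among them Il17a, Il23r, Blk, Cd163l1 and 5830411N06Rik, and over 10 type 1 genes (Tbx21, Eomes, Ifng, Il2rb, Klrd1, Klrk1, Gzma, Gzmb, Ccl5 and Nkg7). A type 17 sum of 2 or more was found in 71.1% of Crtc2-/- cells (108 of 152, interval 63.2% to 78.1%) and 63.6% of Crtc2+/+ cells (82 of 129, 54.6% to 71.9%). After each cell was thinned to 1000 UMIs the shares were 63.2% and 55.8%. The intervals overlapped.

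Few cells lay near the limit. No cell of either library had a type 17 sum of exactly 2, and 1 of each had a sum of exactly 1. Among Crtc2-/- cells the median type 17 sum was 23 above the limit and 0 below it, and among Crtc2+/+ cells it was 24 and 0. The type 1 sum ran the other way, with medians of 2 above and 32.5 below the type 17 limit in Crtc2-/- cells, and 1 above and 64 below in Crtc2+/+ cells. A type 1 sum of 10 or more was reached by 38 of 44 Crtc2-/- and 45 of 47 Crtc2+/+ cells below the type 17 limit, and by 6 of 108 Crtc2-/- and 0 of 82 Crtc2+/+ cells above it. Cells with both sums at 2 or more were 45.4% of Crtc2-/- (37.3% to 53.7%) and 22.5% of Crtc2+/+ cells (15.6% to 30.7%), and after thinning 7.24% (3.67% to 12.6%) and 1.55% (0.188% to 5.49%).

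Genes outside the type 17 sum were ranked by their ratio between cells below and above the type 17 limit. Klrb1c, Il12rb2, Lck and Xcl1, which neither sum used, were among the 10 highest. Igf1r and Capg were among the 10 lowest. The separation of these genes follows from that choice. Klrb1c, the receptor NK1.1, was seen in 45.5% of Crtc2-/- and 57.4% of Crtc2+/+ cells below the limit, against 0 and 1.22% of cells above it. Il12rb2, a chain of the interleukin 12 receptor, had 282 CPM in Crtc2-/- and 209 CPM in Crtc2+/+ cells below the limit and no UMI in the cells above it. Lck, the kinase next to the T-cell receptor, was seen in 84.1% of Crtc2-/- and 87.2% of Crtc2+/+ cells below the limit, against 3.7% and 0 of those above it. Xcl1 was on the same side, in 59.1% of Crtc2-/- and 85.1% of Crtc2+/+ cells below the limit and in 0.926% and 1.22% of those above it. Ccl5, a chemokine used in the type 1 sum, was read in 17.6% of Crtc2-/- and 6.1% of Crtc2+/+ cells above the limit, against 15.1% and 9.8% of B cells which should lack it, at median depths of 3977.5 and 3615 UMIs. The Crtc2+/+ share is thus read as background, and the Crtc2-/- share stood little above it. Above the limit stood Igf1r, the receptor for insulin-like growth factor, at 651 CPM in Crtc2-/- and 806 CPM in Crtc2+/+ cells, against 14.3 and 20.5 CPM below it. Capg, an actin-capping protein, had 695 CPM in Crtc2-/- and 820 CPM in Crtc2+/+ cells above the limit, against 4.78 and 41.0 CPM below it. The cytotoxic list summed to 3998 CPM in Crtc2-/- and 4539 CPM in Crtc2+/+ cells below the limit. Above it the sums were 1529 and 1231 CPM, and in all CD8 T cells 5727 and 4804 CPM.

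Inside the type 17 cells the scavenger receptors Cd163l1 and 5830411N06Rik, also called Scart2, were read in different cells. This split was chosen after its values were seen. The genes lie beside each other on chromosome 7, 5830411N06Rik at chr7:140247284-140300736. Cd163l1 alone was read in 53 Crtc2-/- and 59 Crtc2+/+ cells, or 34.9% (27.3% to 43.0%) and 45.7% (36.9% to 54.7%). 5830411N06Rik alone was read in 40 Crtc2-/- and 19 Crtc2+/+ cells, or 26.3% (19.5% to 34.1%) and 14.7% (9.11% to 22.0%). Both were read in 13 and 5 cells and neither in 46 and 46. The level of 5830411N06Rik over all gamma-delta-like cells was 291 CPM in Crtc2-/- and 146 CPM in Crtc2+/+, a ratio of 2.00 (1.58 to 2.54).

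Some receptor variable segments followed the split. Tcrg-V6 and Trdv4 encode the invariant gamma and delta chains of a fetal-derived, tissue-resident lineage. Tcrg-V6 gave 36 UMIs in Crtc2-/- and 22 in Crtc2+/+ cells with Cd163l1 alone, and none in cells with 5830411N06Rik alone. Trdv4 gave 80 UMIs in Crtc2-/- and 65 in Crtc2+/+ cells with Cd163l1 alone, in 28 of 53 and 33 of 59 cells. With 5830411N06Rik alone it gave none in Crtc2-/- and 1 in Crtc2+/+ cells. Trdv5, another delta segment, gave 9 UMIs in Crtc2-/- and 5 in Crtc2+/+ cells with 5830411N06Rik alone, against 1 and 0 with Cd163l1 alone. Trgv2, the gamma segment read in the largest number of cells (41 Crtc2-/- and 41 Crtc2+/+), did not follow it: it was read in 13 of 53 Crtc2-/- and 17 of 59 Crtc2+/+ cells with Cd163l1 alone, and in 11 of 40 and 9 of 19 with 5830411N06Rik alone. Since reads of these segments are rare, a cell without a UMI is not shown to lack the segment.

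Further genes that the split did not use separated the same cells in both libraries. Pdcd1, the inhibitory receptor PD-1, was seen in 64.2% of Crtc2-/- and 45.8% of Crtc2+/+ cells with Cd163l1 alone, against 7.5% and 5.26% of cells with 5830411N06Rik alone. Clnk had 1072 CPM in Crtc2-/- and 1091 CPM in Crtc2+/+ cells with Cd163l1 alone, against 120 and 106 CPM with 5830411N06Rik alone. Zbtb7c, a BTB zinc finger gene, was seen in 26.4% of Crtc2-/- and 37.3% of Crtc2+/+ cells with Cd163l1 alone and in none of the 40 and 19 cells with 5830411N06Rik alone. Zbtb16 had 727 CPM in Crtc2-/- and 372 CPM in Crtc2+/+ cells with Cd163l1 alone, against 203 and 180 CPM with 5830411N06Rik alone. Tcrg-C1 was higher with Cd163l1 alone, at 1232 CPM in Crtc2-/- and 1285 CPM in Crtc2+/+ cells, against 365 and 434 CPM with 5830411N06Rik alone.

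Other genes, Ccr6 and Fyb among them, were picked for being higher with 5830411N06Rik alone in both libraries. Ccr6, a chemokine receptor that guides cells to mucosal and inflamed sites, had 291 CPM in Crtc2-/- and 180 CPM in Crtc2+/+ cells with 5830411N06Rik alone, against 94.5 and 80.5 CPM with Cd163l1 alone. Fyb, an adaptor between receptor and integrins, was seen in 87.5% of Crtc2-/- and 68.4% of Crtc2+/+ cells with 5830411N06Rik alone, against 11.3% and 16.9% with Cd163l1 alone. Il17a was read in both groups, in 18 of 53 Crtc2-/- and 14 of 59 Crtc2+/+ cells with Cd163l1 alone and in 8 of 40 and 3 of 19 with 5830411N06Rik alone. Il23r was read in 84.9% of Crtc2-/- and 81.4% of Crtc2+/+ cells with Cd163l1 alone and in 77.5% and 78.9% with 5830411N06Rik alone.

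**Figure D2:**
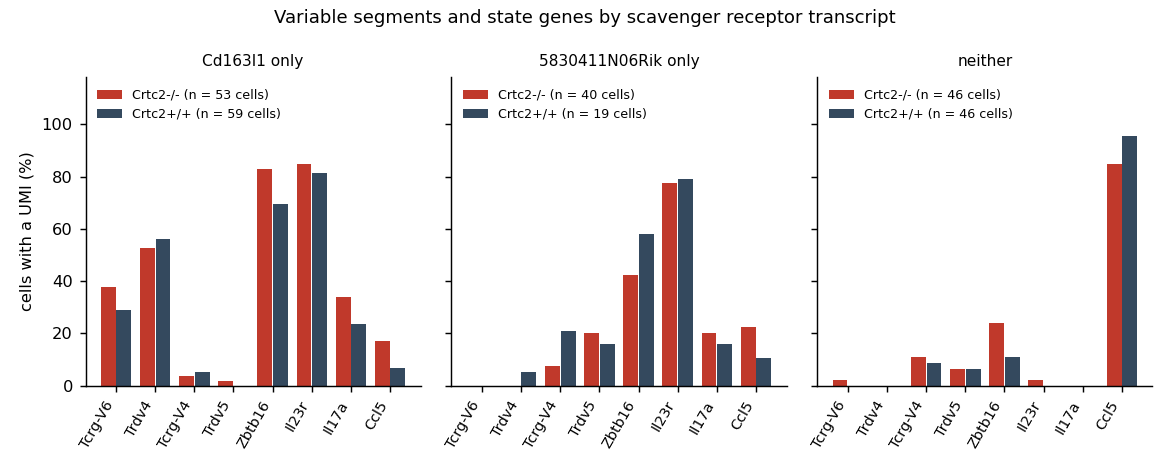
Share of gamma-delta-like cells with a UMI of each gene, for cells with Cd163l1 alone, 5830411N06Rik alone or neither, in the Crtc2-/- library (red) and the Crtc2+/+ library (dark blue). Tcrg-V6 and Trdv4 stand in the Cd163l1 cells, Il23r in both scavenger receptor groups, and Ccl5 in 84.8% of Crtc2-/- and 95.7% of Crtc2+/+ cells with neither.

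Between the genotypes, type I interferon-stimulated genes were lower in Crtc2-/- gamma-delta-like cells. Of the 31-gene list, 28 were measured, all 28 were below 0 on the log2 scale, and 19 were lower by 2-fold or more, where 2.83% of all 7956 measured genes were. The median log2 ratio was -1.26, against 0.03 over all measured genes. CD8 T cells showed 17 of 30 past that limit (background 0.573%) and CD4 T cells 23 of 30 (background 1.05%), with medians of -1.17 and -1.44. These 3 classes share both libraries and are no independent evidence of each other.

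Ifit1, an interferon-induced RNA-binding protein, had 6 UMIs in Crtc2-/- cells, or 7.44 CPM (2.73 to 16.2), and 135 UMIs in Crtc2+/+ cells, or 187 CPM (157 to 222). It was seen in 3.29% of Crtc2-/- and 24.0% of Crtc2+/+ cells, and in 1.42% and 2.72% of B cells. Ifit3 of the same family had 11.2 CPM in Crtc2-/- and 193 CPM in Crtc2+/+ cells. Rsad2, the antiviral enzyme viperin, had 4.96 CPM in Crtc2-/- and 108 CPM in Crtc2+/+ cells. Ddx60, an antiviral helicase, had 26.0 CPM in Crtc2-/- and 132 CPM in Crtc2+/+ cells. Usp18, which removes the ubiquitin-like protein ISG15, had 13.6 CPM in Crtc2-/- and 104 CPM in Crtc2+/+ cells, and Isg20, an exonuclease, had 17.4 and 97.2 CPM. Isg15 itself had 81.9 CPM in Crtc2-/- and 262 CPM in Crtc2+/+ cells. The counting intervals of the ratio lay below 1 for all of these.

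The lower level was found over many cells and on both sides of the type 17 limit, but not in the cells with 5830411N06Rik alone. After thinning to 1000 UMIs, 38.2% of Crtc2-/- and 20.9% of Crtc2+/+ gamma-delta-like cells had no UMI of the list, and 5.92% (2.74% to 10.9%) and 27.1% (19.7% to 35.7%) had 5 or more. The 10 richest cells gave 38.5% of the list's UMIs in Crtc2-/- and 38.2% in Crtc2+/+. B cells, where 5.85% of Crtc2-/- and 8.0% of Crtc2+/+ cells had 5 or more, differed less. Among type 17 cells 24 of 25 measured genes of the list were below 0, with a median of -1.06, and among the other cells all 26 were, with a median of -1.68. Among the 53 Crtc2-/- and 59 Crtc2+/+ cells with Cd163l1 alone 21 of 22 were below 0, with a median of -1.19. In the 40 Crtc2-/- and 19 Crtc2+/+ cells with 5830411N06Rik alone 7 genes of the list were measured, 5 were above 0 and the median was 0.32, with the whole list at a summed 1493 CPM in Crtc2-/- and 1388 CPM in Crtc2+/+. The difference between these groups of cells was not tested. Ifit1 had 5.02 CPM in Crtc2-/- and 140 CPM in Crtc2+/+ type 17 cells, and 14.3 and 257 CPM in the other cells.

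The promoters of Ifit1, Ifit3 and Rsad2 are shown because these genes were among the furthest apart. Each stretch is 120 bases of the RefSeq promoter window (GRCm38.p6, 250 bases before to 50 after the start), with the core of the interferon-stimulated response element in capitals. The core was searched on both strands as GAAA, any 2 bases and GAAA again, and appears here as its reverse complement.
Ifit1, chr19:34640739-34640858, plus strand: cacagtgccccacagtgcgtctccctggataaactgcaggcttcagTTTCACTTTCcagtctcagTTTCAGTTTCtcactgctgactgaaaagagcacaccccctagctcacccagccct
Ifit3, chr19:34583335-34583454, plus strand: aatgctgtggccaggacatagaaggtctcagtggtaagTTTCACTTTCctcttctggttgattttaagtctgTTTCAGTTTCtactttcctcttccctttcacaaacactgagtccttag
Rsad2, chr12:26456508-26456627, minus strand: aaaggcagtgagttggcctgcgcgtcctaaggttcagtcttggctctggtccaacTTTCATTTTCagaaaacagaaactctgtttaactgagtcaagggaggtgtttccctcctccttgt
Ifit1 and Ifit3 held 2 matches each and Rsad2 held 1. On either strand the core was in 16 of the 24 interferon-stimulated genes with a promoter entry, and in 3.99% of all 27025 promoters. Of the 12 genes lowest in Crtc2-/- cells, 9 had an entry and 6 of these held the core. Of the 12 highest, 10 had an entry and 3 held it. TGACGTCA, the palindromic cAMP response element bound by CREB, was in 2.03% of all promoters and in none of those 24, 9 and 10 genes. The shorter CREB motif TGACG, which the full element contains, was in 23.0% of all promoters. It was in 6 of those 24, in 2 of the 9 and in 5 of the 10. A match is not a bound site. No match says only that these letters are not in this window.

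Genes induced by interferon gamma were lower as well, by less. Of 19 measured guanylate-binding, immunity-related GTPase and antigen presentation genes 17 were below 0 and 4 were lower by 2-fold or more, where 2.83% of all measured genes were, with a median log2 ratio of -0.65. Iigp1, a GTPase that attacks the vacuoles of parasites, had 7.44 CPM in Crtc2-/- and 114 CPM in Crtc2+/+ cells, with 34.1% of the Crtc2+/+ UMIs in 1 cell. Cxcl10, a chemokine for CXCR3-bearing T cells, had 26.0 CPM in Crtc2-/- and 254 CPM in Crtc2+/+ cells, seen in 3.29% and 18.6% of cells.

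Cytotoxic genes were mostly lower over all gamma-delta-like cells. Of the cytotoxic list 10 of 12 measured genes were below 0 and 4 were lower by 2-fold or more, where 2.83% of all measured genes were, with a median of -0.82, against a median of 0.24 in CD8 T cells. Ly6c2, a surface antigen of memory and interferon-gamma-committed cells, had 109 CPM in Crtc2-/- and 561 CPM in Crtc2+/+ cells. Nkg7, a granule protein, had 287 CPM in Crtc2-/- and 608 CPM in Crtc2+/+ cells. Xcl1 had 144 CPM in Crtc2-/- and 507 CPM in Crtc2+/+ cells, with 67.9% of the Crtc2+/+ UMIs in 5 cells. The share of cells below the type 17 limit moved with these genes, at 44 of 152 Crtc2-/- and 47 of 129 Crtc2+/+ cells. Within those cells Nkg7 had 1076 CPM in Crtc2-/- and 1498 CPM in Crtc2+/+, and Ly6c2 402 and 1344 CPM. The median of the cytotoxic list there was -0.28. Over all gamma-delta-like cells the type 1 list leaned the same way, with 12 of 17 genes below 0. Of these 17, 3 were lower by 2-fold or more and none higher, at a summed 2007 CPM in Crtc2-/- and 2790 CPM in Crtc2+/+. The median of the type 1 list was -0.11, and its sign changed in 3 of 14 alternatives. Below the type 17 limit 11 of 17 type 1 genes were above 0, with a median of 0.12, where 2349 of all 4407 measured genes were. Above the limit 5 of 7 were, with a median of 0.30, where 3443 of all 6687 were. Counts of so few genes lie near those of all genes. Tbx21, which encodes T-bet, had 287 CPM in Crtc2-/- and 164 CPM in Crtc2+/+ cells below the limit, and Ifng, which encodes interferon gamma, had 90.9 and 58.1 CPM. The natural killer list was lower over all gamma-delta-like cells, like the cytotoxic list. Of its 12 genes 7 were measured and all 7 were below 0, at a summed 605 CPM in Crtc2-/- and 934 CPM in Crtc2+/+ cells. The part of the natural killer list in the result was not tested.

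Other genes were higher in Crtc2-/- gamma-delta-like cells. Over all measured genes 52.6% were above 0 and 1.43% were higher by 2-fold or more. Nr4a1 and Nr4a3, nuclear receptors induced by T-cell receptor signalling, were among the 12 highest. Nr4a1 had 127 CPM in Crtc2-/- (103 to 154) and 29.1 CPM in Crtc2+/+ cells (18.0 to 44.6), seen in 28.9% and 11.6% of cells. B cells, which express it, gave 25.1% in Crtc2-/- and 30.3% in Crtc2+/+. Nr4a3 had 109 CPM in Crtc2-/- and 18.0 CPM in Crtc2+/+ cells. Of the list of receptor-induced early genes 4 of 16 measured genes passed the fold upwards and none downwards, with a median of 0.36. CD8 T cells had 7 of 19 (background 1.32%) and CD4 T cells 4 of 17 (background 2.53%) past that limit. Dissociation and heat shock genes, which handling can raise, had a median of 0.40 in the same cells, with 11 of 14 above 0 and none past the fold, and their part in the result was not tested.

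Ctla4 had 51 UMIs in Crtc2-/- and 5 in Crtc2+/+ cells, a ratio of 9.11 (3.66 to 29.3). Of the inhibitory receptor list 9 of 10 measured genes were above 0 and 2 passed the fold, with a median of 0.68, against 1.17 in CD8 T cells. Of all measured genes in gamma-delta-like cells 52.6% were above 0 and 1.43% passed the fold upwards. Tox, a transcription factor of persistently stimulated T cells, had 832 CPM in Crtc2-/- and 543 CPM in Crtc2+/+ cells. Crem, a member of the CREB family that cAMP itself induces, had 138 CPM in Crtc2-/- and 61.1 CPM in Crtc2+/+ cells, the 1 gene of 17 measured in the list of CRTC, CREB and cAMP genes past the fold. The median of that list was 0.14.

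Several genes that were far apart were read mainly in type 17 cells. Matn2, a matrix protein, had 43 UMIs in 26 of 108 Crtc2-/- type 17 cells and 1 UMI in 82 Crtc2+/+ type 17 cells, and none in the other cells. Nebl, an actin-binding protein, had 370 CPM in Crtc2-/- and 178 CPM in Crtc2+/+ type 17 cells. Areg, the growth factor amphiregulin, had 52 UMIs in 11 Crtc2-/- cells and 3 UMIs in 2 Crtc2+/+ cells, all of type 17. Klf2, a transcription factor of recirculating T cells that was read on both sides of the limit, had 980 CPM in Crtc2-/- and 409 CPM in Crtc2+/+ type 17 cells, and 741 and 547 CPM in the others. In the opposite direction Krt83, a keratin, was read in 19 of 108 Crtc2-/- and 50 of 82 Crtc2+/+ type 17 cells, at 36.8 and 231 CPM. Tmem273, a membrane protein, was read in 7 Crtc2-/- and 31 Crtc2+/+ of those cells. Matn2, Nebl, Krt83 and Tmem273 were named for their ratios over all genes, and Areg and Klf2 for their ratios within their lists, in the same cells. Among the 12 highest, Ppt1, Rrad and Kansl1l had 41.8%, 45.1% and 44.7% of their Crtc2-/- UMIs in 1 cell.

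The core of the type 17 programme did not follow. Over all gamma-delta-like cells its median was 0.25, with 19 of 24 measured genes above 0, 2 past the fold upwards and none downwards. Of all measured genes 52.6% were above 0, and 1.43% passed the fold upwards and 2.83% downwards. Among type 17 cells alone the median was -0.074, with 9 of 24 above 0, where 3443 of all 6687 genes were. There Il17a had 316 CPM in Crtc2-/- and 463 CPM in Crtc2+/+ cells, Il23r 635 and 731 CPM, and Blk 780 and 801 CPM. Il17f, which encodes interleukin 17F, had 20 UMIs in 5 Crtc2-/- cells and none in 129 Crtc2+/+ cells, at least 5.96-fold higher in Crtc2-/- than the limit of 3 counts per library allows, and 14 of the 20 lay in 1 cell.

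**Figure D3:**
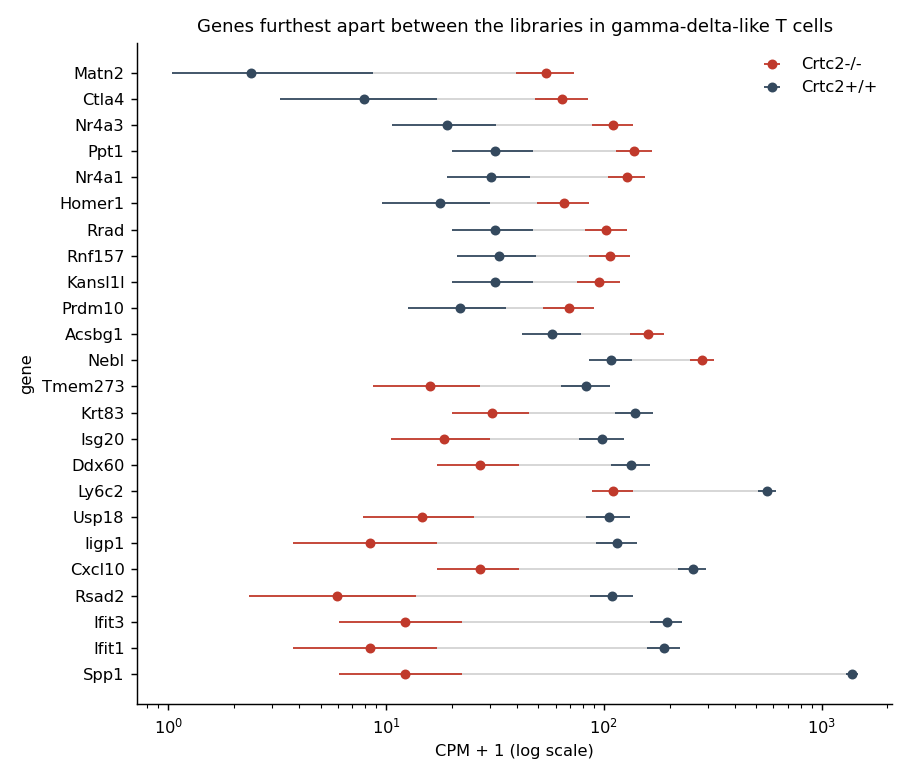
CPM plus 1, on a log axis, of the 12 genes highest and the 12 lowest in Crtc2-/- relative to Crtc2+/+ gamma-delta-like cells by the naming rule, with exact 95% counting intervals. Crtc2-/- points are red and Crtc2+/+ points dark blue. Matn2 is at the top, at 53.3 CPM in Crtc2-/- and 1.39 CPM in Crtc2+/+ cells, and the interferon-stimulated genes fill the lower part.

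Spp1, the secreted protein osteopontin, had the lowest ratio, at 11.2 CPM in Crtc2-/- and 1378 CPM in Crtc2+/+ cells, but 1 Crtc2+/+ cell held 943 of its 993 UMIs there. The hepatocyte list was likewise at a summed 59.5 CPM in Crtc2-/- and 669 CPM in Crtc2+/+ cells, and the endothelial list at 148 and 368 CPM, with 6 of 11 and 5 of 6 genes measured and all below 0. Alb had 8 UMIs in Crtc2-/- and 167 in Crtc2+/+ cells, 55.7% of the Crtc2+/+ UMIs in 1 cell. More than 4 Alb UMIs were found in 0 of 152 Crtc2-/- and 2 of 129 Crtc2+/+ cells. The macrophage list was the other way, at a summed 2187 CPM in Crtc2-/- and 1233 CPM in Crtc2+/+ cells, although its median was -0.57 with 5 of 7 measured genes below 0. The sum was set by Cd74, the invariant chain of MHC class II, at 1554 CPM in Crtc2-/- and 359 CPM in Crtc2+/+ cells. Cd74 was seen in 41.4% of Crtc2-/- and 65.9% of Crtc2+/+ cells, and 420 of its 1253 Crtc2-/- UMIs lay in 1 cell. The part of these transcripts in the results was not tested. Without the cells that had over 4 UMIs of the hepatocyte and endothelial lists and Spp1, the number of genes lower by 2-fold or more was 109 in place of 225, and the interferon-stimulated list kept its direction in all 14 alternatives, with medians between -1.68 and -1.06.

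**Figure D4:**
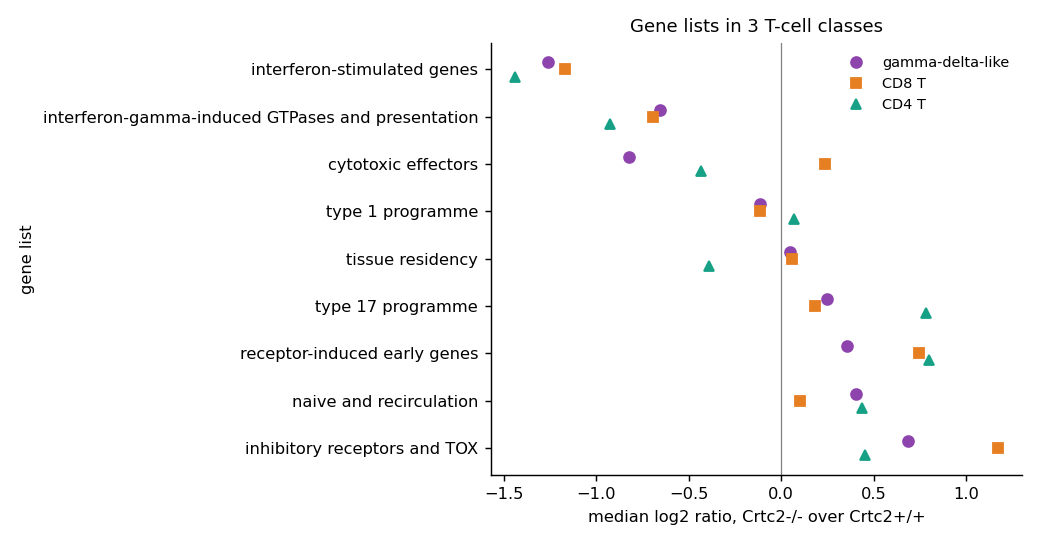
Median log2 ratio of Crtc2-/- to Crtc2+/+ over the measured genes of 9 lists, in gamma-delta-like, CD8 and CD4 T cells. The interferon-stimulated list lies between -1.44 and -1.17 in all 3 classes. The cytotoxic list is at -0.82 in gamma-delta-like and 0.24 in CD8 T cells.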

How the data were processed

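Single-cell RNA was measured in 1 liver tumour library per genotype. The authors deposited UMI counts, unnormalised, for each barcode. The file headers give Cell Ranger 7.1.0 as their origin. The labels' protocols name 3' chemistry and a v2 kit, and the submitters' processing notes name mm10, Cell Ranger and Seurat. The sources used here state neither intron counting nor the annotation. Barcodes had been filtered before deposit, the lowest holding 501 UMIs in Crtc2-/- and 502 in Crtc2+/+.

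Limits of at least 500 UMIs and 250 genes and at most 20% mitochondrial UMIs kept 9174 of 9242 in Crtc2-/- and 9612 of 9707 in Crtc2+/+. Doublets called by Scrublet (scanpy 1.11.5), 2.98% and 2.74% against expected rates of 7.34% and 7.69%, were kept in the results, with 2 and 6 among the gamma-delta-like cells, and removed in an alternative. Counts were summed per class and library and scaled to CPM. CD8 T cells (Cd8a or Cd8b1, no Cd4 or Trdc) were 1326 and 879, and CD4 T cells (Cd4, no Cd8a, Cd8b1 or Trdc) 280 and 200, under the same other limits. Genes with at least 20 UMIs over both sides were measured. Intervals were Poisson for CPM, Clopper-Pearson for shares and exact conditional for ratios. Computations used Python 3.11.15, numpy 2.4.6, scipy 1.17.1 and pandas 2.3.3, and were tested on simulated data.

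Named genes were the 12 highest and 12 lowest between the libraries, and the 10 highest and 10 lowest against CD8 and CD4 T cells by the ratio nearer 0. They needed at least 50 CPM and a UMI in 10% of cells on the higher side, and 50% of the CPM of CD3-free barcodes. Receptor genes, type sums and up to 6 genes of each list were added. Genes between the scavenger receptor groups and between the parts of the type 17 limit were the 10 furthest each way at 50 CPM and 20% of cells, with fixed receptor and state genes, chosen after seeing the data, as were Isg15, Tox and the other genes outside these rules. The cells, the 25 gene lists and the rules were chosen with earlier results of these data known. Some named genes are not reported here. Positions came from GENCODE M21 (GRCm38), which matched 99.8% of 32285 features.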

Additional observations from a re-analysis of the deposited data

Results flagged for a closer look

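Named genes were marked where the genotype log2 ratio had opposite signs in gamma-delta-like and CD8 T cells, was at least 0.5 in size in both, and both counting intervals left out 1. The difference between the classes was not tested, and both classes come from the same 2 libraries. Chemokine and granzyme genes were lower in Crtc2-/- than in Crtc2+/+ gamma-delta-like cells and higher in CD8 T cells, with log2 ratios of -0.86 for Ccl5 (0.78 in CD8 T cells), -1.22 for Ccl4 (2.65), -1.11 for Ccl3 (2.83), -1.43 for Gzma (1.35) and -1.05 for Gzmb (0.68). Ccl4 had 37.2 CPM in Crtc2-/- and 99.9 CPM in Crtc2+/+ gamma-delta-like cells, against 1767 and 274 CPM in CD8 T cells, and 44 of its 72 Crtc2+/+ gamma-delta-like UMIs lay in 1 cell. In Crtc2+/+ gamma-delta-like cells 1 cell also held 16 of the 17 Gzma UMIs and 1 held 16 of the 18 Ccl3 UMIs. Cd200r1, an inhibitory receptor, was at -0.75 (1.49 in CD8 T cells). The scavenger receptor gene 5830411N06Rik ran the other way, at 0.95 in gamma-delta-like cells and -0.64 in CD8 T cells, where it had 1.15 CPM in Crtc2-/- and 7.43 CPM in Crtc2+/+.

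The lipid-binding genes Cd36 and Fabp5 were at -1.28 and -0.96 in gamma-delta-like cells, and 1 Crtc2+/+ cell held 68.9% and 56.1% of their Crtc2+/+ UMIs. The hepatocyte genes Serpina1b and Apoa1 were at -1.75 and -1.51, with 93.6% and 57.7% of Crtc2+/+ UMIs in 1 cell. The endothelial genes Cdh5, Egfl7, Kdr and Stab2 were at -2.80, -2.66, -2.44 and -1.24, and were read in 3.1%, 3.1%, 3.1% and 8.53% of Crtc2+/+ gamma-delta-like cells.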

How the results depend on the processing

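No paired analysis was possible because each genotype had 1 library. No replicate could be left out for the same reason. The share of gamma-delta-like cells kept its sign among kept barcodes under 7 alternatives. Among CD3-positive barcodes it kept it in 6 of 7, between -0.22 and 0.02. The planned setting without any Trac, Trbc1 or Trbc2 UMI left 5 Crtc2-/- and 8 Crtc2+/+ cells and was not run. Cells with no Trac UMI (112 and 92), cells poor in hepatocyte, endothelial and Spp1 UMIs, and the 2 type 17 parts were settings chosen after seeing the data.

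With a pseudocount of 1 CPM the genes past the fold were 257 higher and 353 lower in Crtc2-/- cells, 407 higher and 230 lower than in CD8 T cells, and 153 lower than in CD4 T cells. Without a filter on low counts 370 were lower in Crtc2-/- cells. Among cells with at most 1 UMI of Ncr1, Tyrobp, Fcer1g and Klra8, 111 were lower in Crtc2-/- cells, 147 lower than in CD8 and 158 lower than in CD4 T cells. After thinning, 88 were lower in Crtc2-/- cells, 144 higher than in CD8 and 72 higher than in CD4 T cells. Then the alpha-beta list median reversed to -0.055 and Eomes to 0.51. Among cells poor in hepatocyte, endothelial and Spp1 UMIs 109 genes were lower in Crtc2-/-.

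The median of the cytotoxic list was -0.23 with no Trac UMI, reversed to 0.18 among type 17 cells and was -0.28 among the others. Among type 17 cells 144 genes were lower in Crtc2-/-. There the median was -0.074 for the type 17 list, 1.24 for the naive list and reversed to 0.0049 for the natural killer list. Ratios also reversed for Gzma (0.42), Gzmb (1.70), Nkg7 (1.003) and Xcl1 (1.36), while Nkg7 had 6 UMIs in Crtc2-/- and none in Crtc2+/+ type 17 cells. Among the others 188 genes were higher in Crtc2-/-, the type 17 median was 0.53 and Krt83 reversed to 0.97. Main values were 114 higher and 225 lower genes between the libraries, 262 and 92 against CD8 and 167 and 93 against CD4 T cells. The causes were not tested. The depth of 152 Crtc2-/- and 129 Crtc2+/+ cells limits low genes: 3 counts correspond to 3.72 and 4.16 CPM.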
